A study of Drosophila melanogaster with 6 samples.

Results

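betaTub97EF is a beta-tubulin gene on chromosome arm 3R of Drosophila melanogaster. Its transcript was followed through the single array probe that carried its name, A_09_P009911, 1 of 32162 probes on the array. This probe was designed to the transcript FBtr0300611 and was printed as 2 spots on every array. The gene has 2 transcripts in RefSeq, which a single probe could not be expected to tell apart. Only 3405 of the 32162 probes could be given a symbol, so an unnamed probe to this gene may have been missed. Cultures of the HB10 line were exposed to 14 °C, a cool temperature, or to 24 °C, the temperature before the shift, for 24 h, with 3 replicate cultures each and 1 single-colour array per culture. HB10 is a continuous line derived from embryos that carried UASt-ras85D.V12 under Act5C-GAL4, which drives an activated Ras throughout the body. Cells at both temperatures therefore carried this transgene, and all arrays came from 1 line.

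Microtubules are hollow polymers of alpha- and beta-tubulin dimers, and gamma-tubulin seeds their assembly. They carry transport by kinesin and dynein motors, build the mitotic spindle and tend to depolymerize when cells are cooled. Animals have several tubulin genes, whose products differ mainly at the carboxy terminus and in where they are made. In Drosophila, betaTub56D is the widely expressed beta-tubulin, betaTub60D is typical of developing muscle and betaTub85D of the male germline, while betaTub97EF has a more restricted expression.

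The 6 arrays had 43602 gene spots each, and 57.7% to 59.4% of them were flagged as well above background, with 0 saturated. Correlations of log2 values were 0.994 to 0.996 among the 14 °C arrays, 0.997 to 0.998 among the 24 °C arrays and 0.988 to 0.990 between temperatures. The replicate 2 array at 14 °C was dimmer than the others, with a 75th percentile of the scanner's processed signal of 881, against 1381 to 1665 on the other 5 arrays. Among the markers of the muscle precursors to which the study likened HB10 cells, twi, a mesodermal transcription factor gene, was the 1 of 5 with a named probe and was well above background on 6 of 6 arrays, at log2 levels of 13.50 to 13.86 at 14 °C and 13.83 to 14.04 at 24 °C. The hemocyte factor gene srp, the 1 of 7 hemocyte markers with a named probe, was well above background on 0 arrays. Of 4 neuronal markers, Syt1 and brp had a named probe. At each temperature, Syt1 was well above background on 3 of 3 arrays and brp on 2 of 3. The log2 fold changes of Syt1 and brp were -0.07 and 0.10. No marker passed the test for a temperature effect by its brightest probe, and their part in the results was not tested.

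The level of betaTub97EF transcripts was close to 2-fold higher in the cool. Quantile-normalized log2 levels were 11.94, 11.79 and 11.93 in the 14 °C cultures, and 10.89, 10.86 and 11.02 in the 24 °C cultures. Every culture at 14 °C lay above every culture at 24 °C. The means were 11.89 ± 0.08 at 14 °C and 10.92 ± 0.08 at 24 °C (SD, n = 3 each). The difference of 0.97 on the log2 scale (SE 0.08, 95% CI 0.78 to 1.15) corresponds to a fold change of 1.95 (95% CI 1.72 to 2.22). In limma's moderated test over 18788 tested probes the adjusted p was 1.06e-04. The study had itself named betaTub97EF as CoolUp on these arrays, so this p is not independent of the choice of the gene. RNA came from whole cultures, so a change per cell and a change in the share of cells cannot be told apart.

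The size of the rise was high among all probes and close to 2-fold. The study used a minimum of 2-fold and a false discovery rate under 0.01 for its other cell line and for flies. With the same limits used here for HB10 cells, CoolUp probes were those with an adjusted p under 0.01 and a level at least 2-fold higher at 14 °C than at 24 °C, and CoolDown probes those at least 2-fold lower. There were 111 CoolUp probes (0.591% of those tested) and 64 CoolDown probes (0.341%). betaTub97EF, at 1.95-fold, was not among the CoolUp probes under these limits, although its interval spans the 2-fold line. The study calls betaTub97EF CoolUp in HB10 cells, with no separate limits stated for this line. Without the minimum fold, 1151 probes (6.13%) were higher and 1086 (5.78%) were lower at 14 °C, and betaTub97EF was among the higher ones. Only 135 tested probes (0.719%) had a larger log2 fold change. By the brightest probe of each gene, 12 of 1618 tested genes with a symbol had a larger log2 fold change than betaTub97EF.

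The rise was seen in both spots and in all array pairs. It was 0.93 on the log2 scale at the first spot and 1.00 at the second. Differences between cultures with the same replicate number were 1.05, 0.94 and 0.91, and the 9 possible pairs of a 14 °C and a 24 °C array gave 0.78 to 1.08. The arrays lay on 2 slides. The difference was 1.05 on slide 1, which held replicate 1 of both temperatures, and 0.92 on slide 2, which held replicates 2 and 3 of both. The within-group SD of betaTub97EF was 0.08, against a median of 0.11 over all tested probes. With 3 arrays against 3, a two-sided exact permutation test gave p = 0.1, the smallest value that such a design allows.

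The deposited intensities show how far the value depends on scaling between arrays. At the first spot, median intensities were 4319.5, 2069 and 3618.5 at 14 °C, and 1692.5, 1722 and 2048.5 at 24 °C. At the second spot they were 5297, 2504 and 4663 at 14 °C, and 1932.5, 2051 and 2487 at 24 °C. The dim replicate 2 array at 14 °C was thus nearly level with the brightest 24 °C array before normalization, and lay above it by 0.78 on the log2 scale afterwards. Spot intensities were 43.4 to 125 times the local background, so background correction had little room to act. The second spot was 1.14 to 1.29 times as bright as the first in median intensity, but 0.952 to 1.04 times as bright in the scanner software's processed signal, which is corrected for position on the array. Without the dim array the log2 fold change was 1.01.

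**Figure D1:**
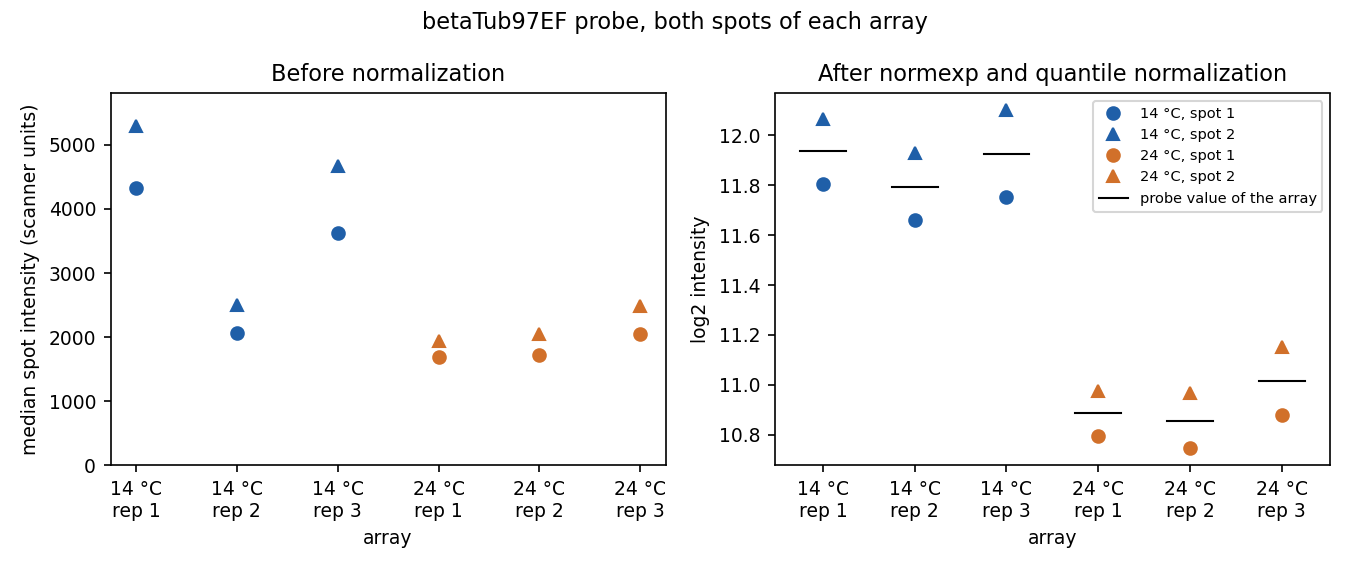
Intensity of betaTub97EF on each of the 6 arrays, with 14 °C arrays in blue and 24 °C arrays in orange, circles for the first spot and triangles for the second. The left panel shows the median spot intensity in scanner units, where the replicate 2 array at 14 °C (2069 and 2504) reached only the level of the brightest 24 °C array, and the right panel the normalized log2 intensity with the probe value of each array as a line, where the 14 °C arrays lay at 11.79 to 11.94 and the 24 °C arrays at 10.86 to 11.02.

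The other tubulin genes had smaller or opposite differences than betaTub97EF. Of 11 tubulin genes, 9 had a named probe and 8 were bright enough to be tested, betaTub97EF included. Among the other 7, by the brightest probe of each gene, 0 were higher and 1 was lower at an adjusted p under 0.01. Over all tested genes with a symbol, 110 of 1618 were higher and 122 were lower, so these counts are near the background and say nothing particular of tubulins. The widely expressed betaTub56D had a log2 fold change of -0.06 (95% CI -0.31 to 0.19, adjusted p 0.749), and its other probe had -0.03. The sign of this small value turned under both median scalings, under 75th percentile scaling and on leaving out replicate 2 at 14 °C. betaTub60D, the muscle beta-tubulin, had -0.19 (95% CI -0.45 to 0.07, adjusted p 0.270), and 0.54 under median scaling over all spots. betaTub85D, the testis beta-tubulin, was well above background on 0 arrays with both of its probes and was not tested.

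Among the alpha-tubulins, alphaTub85E, an isoform known from muscle and testis, fell in the cool. Its log2 levels were 10.02, 10.40 and 10.21 at 14 °C, and 10.96, 10.87 and 10.86 at 24 °C. The groups did not overlap, and the log2 fold change was -0.69 (SE 0.10, adjusted p 0.00165). This call was lost on leaving out replicate 1 at 24 °C (-0.66, adjusted p 0.0126). It was also lost with the processed signal of the scanner (-0.74 and -0.76) and under median scaling (-0.10 and -0.68). alphaTub84B and alphaTub84D encode nearly identical, widely expressed alpha-tubulins, whose probes may share targets. alphaTub84B had a log2 fold change of 0.03 (adjusted p 0.876), or -0.045 on leaving out replicate 2 at 14 °C, with -0.25 and -0.23 at its other probes. Under median scaling over all spots, alphaTub84B had 0.86 and alphaTub84D 1.08 (adjusted p 0.383 and 0.380). alphaTub84D had 0.32 at its brightest probe (adjusted p 0.0238), 0.19 at its dimmest, and 0.37 at its remaining probe, A_09_P009886, which passed the test (adjusted p 0.00717). This probe's log2 levels were 14.35, 14.27 and 14.30 at 14 °C and 13.97, 13.96 and 13.88 at 24 °C, without overlap.

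The dimmest tubulin tested was alphaTub67C, a maternal alpha-tubulin of the egg. It was well above background on 3 of 3 arrays at 14 °C and not well above background on any of the 24 °C arrays. Its log2 levels were 7.13, 7.15 and 7.07 at 14 °C and 7.03, 7.02 and 6.96 at 24 °C. The groups did not overlap, but the mean at 14 °C was only at least 1.08-fold higher, and the difference did not pass the test (adjusted p 0.317). The value depended on the treatment of the background and scale, with 0.66 and 0.86 from the processed signal of the scanner (adjusted p 0.106 and 0.0584) and -0.10 and -0.68 under the median scalings. gammaTub23C, the gamma-tubulin of somatic cells, had a log2 fold change of -0.18 (adjusted p 0.250), and 0.45 under median scaling over all spots.

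The difference in response was tested itself, as the log2 ratio of betaTub97EF to each other gene within an array, compared between temperatures. The ratio was higher at 14 °C for all 6 other tubulin genes that were above background at both temperatures. alphaTub67C was left aside, since it was not well above background at 24 °C. Its ratio differed by 0.85 in the main setting. With the processed signal of the scanner this was 0.35 and 0.15 (adjusted p 0.250 and 0.628), and under median scaling 1.72 (adjusted p 0.0133). Among the 6 genes, the smallest difference was to alphaTub84D, at 0.65 (95% CI 0.41 to 0.89, adjusted p 4.83e-05). The largest was to alphaTub85E, at 1.66 (95% CI 1.37 to 1.94, adjusted p 9.89e-08). The ratio to betaTub56D differed by 1.03 (95% CI 0.79 to 1.26), that to betaTub60D by 1.16 (95% CI 0.89 to 1.43) and that to alphaTub84B by 0.94 (95% CI 0.68 to 1.20). The value was 1.15 for gammaTub23C. For alphaTub84B the difference was 0.77 under median scaling and no longer passed (adjusted p 0.0158). The same test called a larger rise of betaTub97EF against 18166 of 18787 other probes (96.7%) and a smaller one against 37 (0.197%). These 6 tubulin genes thus differed from betaTub97EF as nearly all other probes did. All these ratios share the same betaTub97EF values, so their p-values too are not independent of the choice of the gene.

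**Figure D2:**
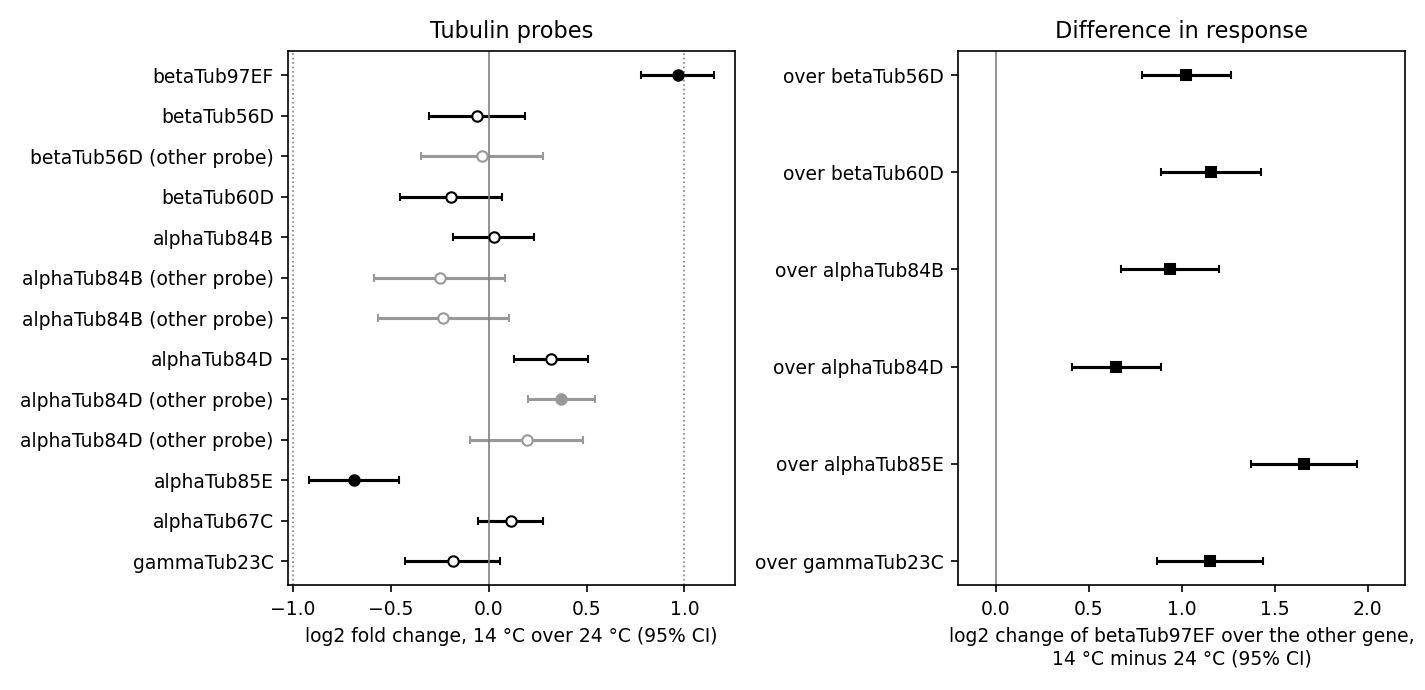
Left, log2 fold change at 14 °C over 24 °C for each tested tubulin probe with its 95% CI (n = 3 arrays per temperature), black for the brightest probe of a gene, grey for its other probes, filled where the adjusted p was under 0.01, with dotted lines at 2-fold. Right, the temperature difference of the within-array log2 ratio of betaTub97EF to each other tubulin gene with its 95% CI; betaTub97EF stands alone near 0.97 on the left, and all 6 intervals on the right lie above 0 (alphaTub67C, not above background at 24 °C, is left out there).

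Genes that work with tubulin were compared as a further group. The lists of nucleation factors, microtubule-associated proteins, kinesins, dynein and dynactin subunits, and tubulin folding and severing factors held 85 genes. Of these, 20 had a named probe and 17 were tested, so most of the lists was not seen. By the brightest probe of each gene, 0 were higher and 0 were lower at an adjusted p under 0.01. Over the 1618 tested genes with a symbol, 110 were higher and 122 were lower. The median log2 fold change of the 17 genes was -0.13, against -0.01 over all tested probes. The following genes of these lists were singled out after their values were seen. Klp67A, a kinesin of the mitotic spindle, had the lowest value, -0.42 (adjusted p 0.0110), and Klp68D, a subunit of the kinesin-2 transport motor, the highest, 0.27 (adjusted p 0.101). With the replicate number as a block, Klp67A passed the test as lower at 14 °C (adjusted p 0.00410). For neb, which encodes a mitotic kinesin, the brightest probe had -0.22 (adjusted p 0.0902), and its other probes had -0.41 and -0.49, of which A_09_P010416 with -0.41 passed (adjusted p 0.00479). Klp61F, the kinesin-5 that slides spindle microtubules apart, had -0.26 (adjusted p 0.0500) at its brightest probe and 0.04 at its other probe (adjusted p 0.792). The mitotic kinesin genes cmet and pav had -0.03 and -0.13. Elsewhere in the lists, the kinesin gene unc-104 had -0.32 (adjusted p 0.0324) and the dynein gene sw -0.32 (adjusted p 0.0807). The kinesin gene Klp98A had 0.25 (adjusted p 0.0722). For the dim kinesin gene Klp54D (mean log2 levels 7.24 at 14 °C and 7.06 at 24 °C) the value was 0.18 (adjusted p 0.113). With the processed signal of the scanner it became 0.93 under quantile and 1.14 under 75th percentile scaling (adjusted p 0.00489 and 8.54e-04). betaTub97EF had 1.01 in both of these settings. In a comparison list of actin and myosin genes, 2 were tested and 0 passed in either direction.

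**Figure D3:**
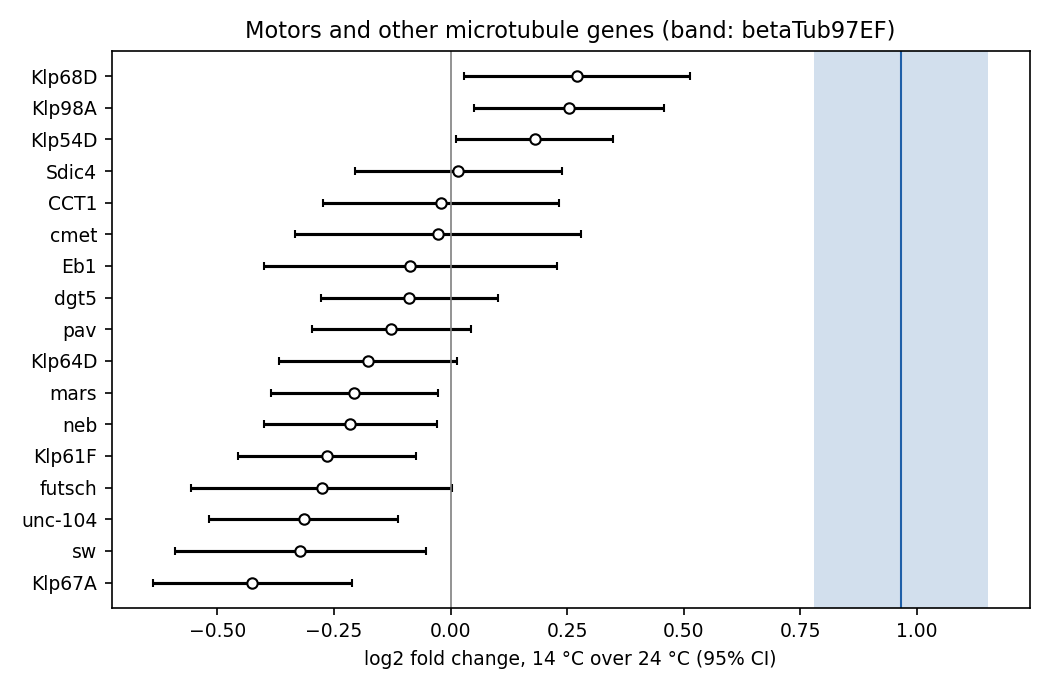
Log2 fold change at 14 °C over 24 °C, with 95% CI, for the brightest probe of each of the 17 tested genes of the motor and other microtubule lists (n = 3 arrays per temperature; open points, adjusted p of 0.01 or more). In the main setting, shown here, the values lie between -0.42 and 0.27, and the blue line and band show betaTub97EF with 0.97 (0.78 to 1.15).

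Other probes had nearly the same pattern as betaTub97EF. Likeness was measured as the root mean square distance between log2 values over the 6 arrays, each probe centred on its own mean, and is given as a description, since all probes shared the arrays and their scaling. The nearest probes were those of FBtr0300406 (distance 0.042, Pearson r = 0.999) and FBtr0074482 (distance 0.044, r = 0.998), transcripts for which no gene symbol was assigned. Their log2 fold changes were 0.90 and 0.91. Among probes with a symbol, that of ODA-Dnal1 was nearest (distance 0.073, r = 0.991, log2 fold change 0.89, adjusted p 1.87e-04). This gene encodes a light chain of axonemal dynein and was not on the dynein list above. Next came trk, the gene of the Torso ligand Trunk (0.078, 0.990 and 1.04), and Acsf3, an acyl-CoA synthetase gene (0.084, 0.988 and 0.87). They were followed by Ucrh, a gene of mitochondrial complex III (0.088, 0.985 and 0.99), and HmgD, which encodes a chromatin protein with an HMG box (0.103, 0.978 and 0.97).

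The genes nearest in pattern were not all alike at their other probes. The remaining probe of trk had a log2 fold change of 1.02, and that of Acsf3 had 0.90, close to the values above. The other probe of HmgD, which was the brighter one, had 0.44. The other probes of Ucrh were designed to different transcripts and had 1.25 and -0.45. The one with -0.45 was by far the brightest, with a mean log2 level of 14.72, against 8.78 and 8.02. It passed the test as lower in the cool (adjusted p 0.00655). By its brightest probe Ucrh thus fell, and the likeness above was measured at its dimmest probe. A correlation of 0.95 or more with betaTub97EF was reached by 836 of 18787 probes (4.45%), so that a close match over 6 arrays was not rare. When r was used in place of the distance, the same 2 transcripts without a symbol were named, and none of the 5 genes with one.

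**Figure D4:**
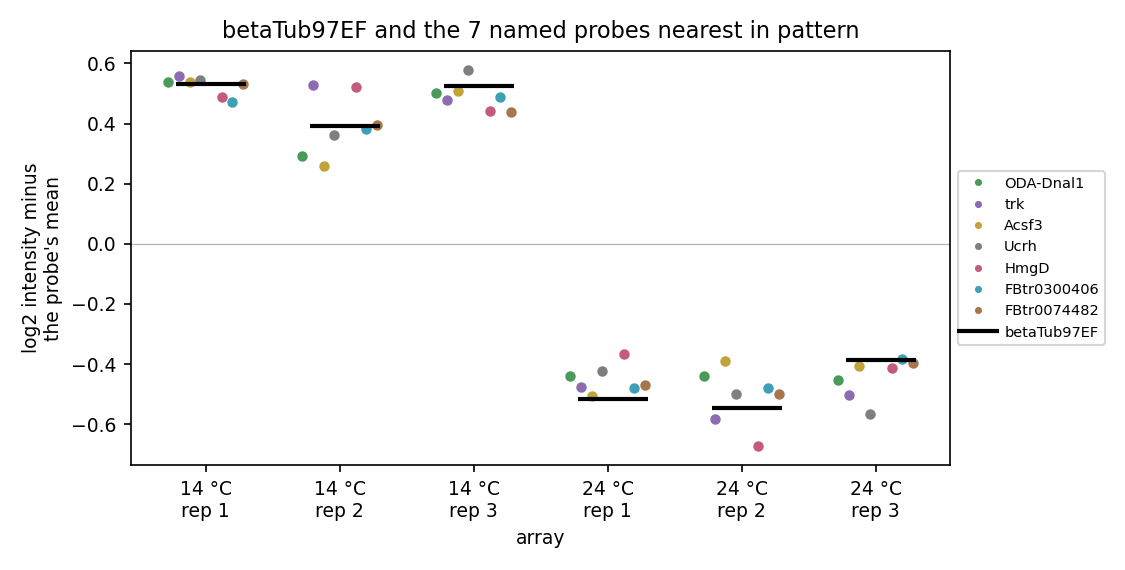
Log2 intensity on each array minus the probe's own mean over the 6 arrays, with black bars for betaTub97EF and coloured points for the 7 probes nearest in pattern; points are offset sideways only for legibility. All 8 probes lie above 0 on the 3 arrays at 14 °C and below 0 on the 3 arrays at 24 °C, and several share with betaTub97EF the lower value of replicate 2 at 14 °C.

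The rise of betaTub97EF kept its direction in 18 of 18 other settings of the processing and the model, and passed the adjusted p of 0.01 in 16 of them. Whether it counted as 2-fold depended on the setting. At least 2-fold with an adjusted p under 0.01 was reached in 4 settings, each with a log2 fold change of 1.01. One of them left out the dim array and another left out replicate 3 at 24 °C. The others used the processed signal of the scanner under quantile or 75th percentile scaling. Relative to the median of all tested probes, betaTub97EF stood at 0.97, and at 1.22 under both median scalings.

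**Figure D5:**
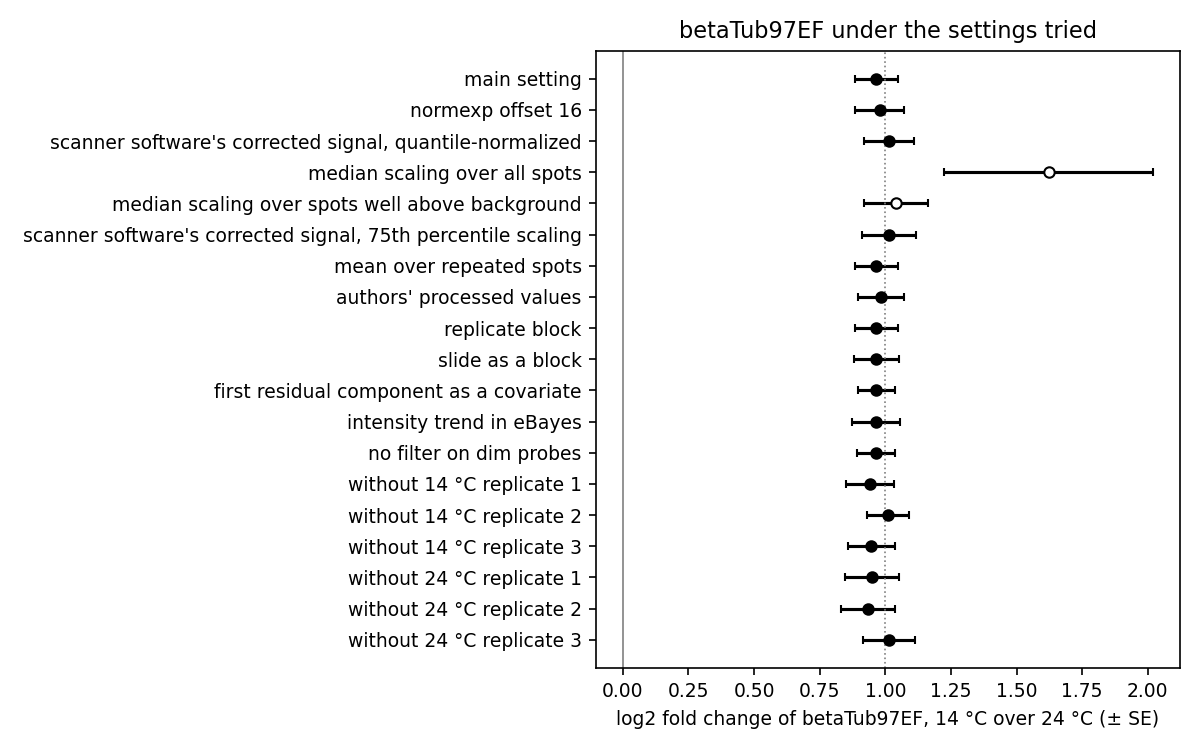
Log2 fold change of betaTub97EF at 14 °C over 24 °C, with its SE, in the main setting and in 18 others, filled where the adjusted p was under 0.01 and with a dotted line at 2-fold. Leaving out single arrays gave 0.93 to 1.01, and the only open points are the median scalings, at 1.62 and 1.04.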

How the data were processed

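Transcripts of HB10 cells were measured on 6 single-colour Agilent Drosophila V2 arrays with Cy3-labelled cRNA. The authors deposited the output of Agilent Feature Extraction 10.7.3.1, in which each spot has a linear intensity. The deposited table of processed probe values was recognized as holding log2 values by setting it against the scanner output, and served as an alternative. For it, the methods name normexp correction, quantile normalization, removal of batch effects by surrogate variables and medians of repeated spots.

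Median spot and background intensities were corrected here with normexp (offset 50) in limma 3.58.1 (R 4.3.3). The plan named the median spot intensity and allowed for the mean, and the median is the column used here. Control and outlier spots were left out, log2 values were quantile-normalized and the median over repeated spots was taken. A probe was tested if at least 50% of its spots were well above background on at least 2 of 3 arrays at 1 or both temperatures. Temperatures were compared with lmFit and eBayes without covariates (two-sided, Benjamini-Hochberg over 18788 probes), and within-array ratios in the same way over 18787. Confidence intervals are limma's, without adjustment for the number of probes. A gene was represented by its brightest tested probe. For a probe not above background at 1 temperature, a bound on the fold change was computed. It sets the bright mean against the higher of the lowest level above background and the probe's own level on each dim array. For alphaTub67C this bound equalled the plain fold change of 1.08, so it was not read as a lower limit. On simulated data with 200 probes changed 2-fold up or down among 18788, 163 were recovered with 1 false call. The simulated noise was independent between arrays, unlike the deviations in these data, so these counts do not give the error rate of the real comparison. The number of arrays limits the precision, the files giving no other measure of depth.

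Symbols came from the study's annotation and RefSeq names and covered 3405 of 32162 probes. Named were betaTub97EF, all tubulin genes with a named probe, any gene of the other lists that passed (none did), and the 5 probes with a symbol and 2 without one nearest in pattern. The kinesin genes and sw were named outside this rule, after their values were seen. These members and lists were chosen with earlier results of these data known. The labels number replicates alike at both temperatures. Deviations from the group means correlated between cultures of the same number (0.20, 0.30 and 0.39), so a fit with the replicate number as a block was run. The labels do not say more on the cultures, which the study's methods call biological replicates, so p-values measure the spread between these samples. Alternatives were other background corrections, scalings, models and filters, and leaving out each array.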

Additional observations from a re-analysis of the deposited data

How the results depend on the processing

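With the replicate number as a block, betaTub97EF had a log2 fold change of 0.97 (adjusted p 1.59e-05) and the pairing made 1 microtubule gene lower (Klp67A); it changed no other call on the tubulin and microtubule genes. Leaving out 1 array gave 0.93 to 1.01 for betaTub97EF (adjusted p at most 0.00165), 0 to 1 lower genes among the other tubulins (0 on leaving out replicate 1 at 24 °C) and 0 to 1 among the microtubule genes (sw, on leaving out replicate 3 at 14 °C). It gave -0.045 to 0.10 for alphaTub84B and -0.16 to 0.060 for betaTub56D, both changing sign on leaving out replicate 2 at 14 °C.

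Median scaling over all spots shifted the median of all tested probes by 0.41, and over spots well above background by -0.17. betaTub97EF then had 1.62 (adjusted p 0.380) and 1.04 (adjusted p 0.0255), and in both 0 probes were CoolUp, 0 CoolDown and 0 other tubulin genes lower. The values of alphaTub67C became -0.10 and -0.68 and those of betaTub56D 0.73 and 0.15, while betaTub60D became 0.54 and gammaTub23C 0.45 in the first. The scanner software's signal gave 387 CoolUp and 260 CoolDown probes after quantile normalization, and 505 and 205 after 75th percentile scaling, with 0 other tubulin genes lower and 1 microtubule gene higher (Klp54D) in both, and betaTub56D at 0.023 in the second. The cause was not tested. Without a minimum fold there were 1151 and 1086 calls, and with one 0 other tubulin genes were lower. After adding the first residual component as covariate, 1 microtubule gene was lower (Klp67A), and 2 were (Klp67A and neb) when the probes of each gene were averaged. Correlation in place of distance kept 2 of the 7 probes nearest in pattern.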
